A study of Mus musculus with 6 samples.

Results

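The 10 genes described here encode the postsynaptic receptor and scaffold of the neuromuscular junction: the acetylcholine receptor subunits Chrna1, Chrnb1, Chrnd, Chrne and Chrng, the receptor-clustering kinase gene Musk with Lrp4 and Dok7, the scaffold gene Rapsn, and the acetylcholinesterase anchor gene Colq. They were followed through H3K27ac ChIP-seq of mouse quadriceps, and every peak whose deposited gene name was one of these genes was taken, whether it lay at the promoter or far from it. This gave 28 of 46988 peaks in the control list, over 8 of the 10 genes, and 22 of 40721 peaks in the detrained list, over 7 of the 10. The groups were wild type C57BL/6 mice that were sedentary (control) and mice of the same strain and genotype that had voluntary wheel running for 4 weeks and were then rested for 72 hours before harvest (detrained). The study's methods describe male young adult mice caged singly with or without a wheel. Each group had 2 H3K27ac libraries and 1 input library, and while the study's methods name C57BL/6J for its mice, the labels give the strain of the inputs as C57BL/7 in control and C57BL/8 in detrained mice, a difference that could not be settled here. All libraries came from whole quadriceps, and the study's methods describe a histone ChIP sample as a single muscle of a single animal.

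H3K27ac, acetylation of lysine 27 on histone H3, marks active promoters and enhancers. At the neuromuscular junction the motor nerve releases acetylcholine onto a receptor built of several subunits, and the muscle nuclei under the nerve ending transcribe the receptor genes far more than the other nuclei of the fiber. Agrin from the nerve binds LRP4, LRP4 activates the kinase MuSK, DOK7 is needed for full MuSK activity, and rapsyn then anchors the receptors in the membrane. Chrng encodes the fetal gamma subunit, which Chrne, the adult epsilon subunit gene, replaces as muscle matures. The subsynaptic nuclei are a small share of all muscle nuclei, and a profile of whole muscle does not separate them from the rest. In such bulk samples fewer nuclei carrying the mark cannot be told apart from less of the mark per nucleus.

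The stretches printed here carry the main observations at the receptor genes and Musk. The Chrna1 and Chrng promoters were chosen because no peak covered their start in either list, the Chrne promoter because its peak was lower in both detrained libraries, and the middle of the Musk intron 9 peak because this was the densest shared peak of Musk by the mean over both groups and holds both kinds of muscle motif, E-box and MEF2. All were read from RefSeq on GRCm38.p6, which is the same build as the mm10 of the peak lists, and the promoters run on the strand of the gene up to the last base before the annotated gene. Capitals mark E-boxes (CANNTG, the site of myogenic factors such as MyoD and myogenin), the N-box core (CCGGAA, the site of ETS factors such as GABP) and the MEF2 site (CTA and TAG with any 4 bases between them), searched on both strands; the E-box pattern reads the same on either strand and was counted once.
Chrna1 promoter, chr2:73580339-73580588, minus strand: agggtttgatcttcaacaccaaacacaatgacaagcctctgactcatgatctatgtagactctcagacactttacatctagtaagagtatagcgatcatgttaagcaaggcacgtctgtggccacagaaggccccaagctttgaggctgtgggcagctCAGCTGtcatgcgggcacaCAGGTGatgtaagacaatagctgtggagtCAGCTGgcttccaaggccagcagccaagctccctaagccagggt
Chrng promoter, chr1:87205561-87205810, plus strand: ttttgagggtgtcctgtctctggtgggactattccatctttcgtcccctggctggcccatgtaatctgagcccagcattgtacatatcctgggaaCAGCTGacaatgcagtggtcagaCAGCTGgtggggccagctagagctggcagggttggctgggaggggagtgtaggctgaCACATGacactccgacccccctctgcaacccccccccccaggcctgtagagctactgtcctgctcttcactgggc
Chrne promoter, chr11:70619214-70619444, minus strand: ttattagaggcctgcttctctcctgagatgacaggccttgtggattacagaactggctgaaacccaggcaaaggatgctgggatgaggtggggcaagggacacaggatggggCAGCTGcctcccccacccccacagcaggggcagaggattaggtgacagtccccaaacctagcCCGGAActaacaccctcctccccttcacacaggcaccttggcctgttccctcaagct
Musk intron 9 peak, chr4:58350501-58350800, plus strand: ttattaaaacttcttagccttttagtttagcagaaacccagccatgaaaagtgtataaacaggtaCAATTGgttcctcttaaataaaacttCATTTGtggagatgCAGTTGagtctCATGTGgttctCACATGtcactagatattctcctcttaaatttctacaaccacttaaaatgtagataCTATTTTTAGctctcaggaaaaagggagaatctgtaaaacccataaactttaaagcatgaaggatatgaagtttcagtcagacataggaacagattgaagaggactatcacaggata

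The Chrna1 promoter held 3 E-boxes, with first bases at -92, -73 and -44 from the transcription start site (TSS), and the Chrng promoter held 3, at -155, -132 and -75. The Chrne promoter held 1 E-box at -138 and 1 N-box core at -76, and the Musk intron 9 window held 5 E-boxes and 1 MEF2 match. The promoter table used here, 250 bases before to 50 after each start, held 7 promoters of 6 of the 10 genes, with no entry for Chrnd, Lrp4, Rapsn and Colq. Of these 7, 6 held an E-box, 1 an N-box core and 0 a MEF2 match, and over all 32851 promoters of the table the shares were 72.3%, 14.9% and 3.69%. A peak was called shared where a control and a detrained peak matched one to one and both were covered over 50% or more of their length. The central 300 bp of the 16 shared peaks of these genes held an E-box in 14, an N-box core in 1 and a MEF2 match in 2, while 74.6%, 11.1% and 4.98% of the 26432 shared peaks in the whole data did. These matches describe the letters in the windows and do not show that a factor binds there.

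Each list was called by the authors on both H3K27ac libraries of a group against its input, so a list has no replicate. The control libraries, named C2 and C3 in the tables, held 22400894 and 21796628 tags, and the detrained libraries, named Ex1 and Ex2, held 20805019 and 22350779. The control input held 10812470 tags and the detrained input 21298438, and the part of this difference in the lists was not tested. Between 44.7% and 49.4% of the tags of an H3K27ac library lay in listed peaks. Marker genes were counted by deposited gene name alone, so a peak inside one but named for a neighbor was left out. Muscle fiber markers had a named peak for 6 of 7 genes in each list (Tnnt3 had none). Their summed level was 5290 to 6781 tags per 10000000 in the control and 6359 to 6564 in the detrained libraries. Motor neuron markers (Chat, Mnx1, Isl1, Slc18a3 and Prph) had a peak for 0 of 5 genes in each list. Schwann cell markers had peaks for 3 of 6 genes in control and 4 of 6 in detrained mice (Sox10 was among those with none), with summed levels of 335.3 to 345.1 and 553.6 to 592.2. Summed levels were 1565 to 1881 and 1668 to 2229 for endothelium (3 of 3 genes in each list), 1557 to 1578 and 1838 to 1913 for fibroblasts (3 of 3), 173.2 to 178.9 and 227.4 to 246.2 for satellite cells (2 of 2), and 93.0 to 124.7 and 149.0 to 188.4 for immune cells (1 and 2 of 3, Cd68 having none). Schwann, fibroblast, satellite and immune marker sums were higher in both detrained libraries, and their part in the values that follow was not tested.

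Peaks covered the TSS of the same number of genes in each list. In both, these were Chrnb1, Chrne, Musk, Lrp4, Dok7 and Rapsn, 6 of the 10, against 43.7% of protein-coding genes in the control and 43.5% in the detrained list. A peak of any position was named for 8 of the 10 in control and 7 of the 10 in detrained mice, where the shares of all protein-coding genes were 57.2% and 55.9%. Of the 28 control peaks 15 were annotated to introns, 7 to intergenic sequence, 3 to promoters, 2 to exons and 1 to a UTR, and of the 22 detrained peaks 14 were in introns, 3 intergenic, 3 in promoters, 1 in an exon and 1 in a UTR. Over all peaks, promoters held 11.2% of the control and 12.6% of the detrained list.

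**Figure D1:**
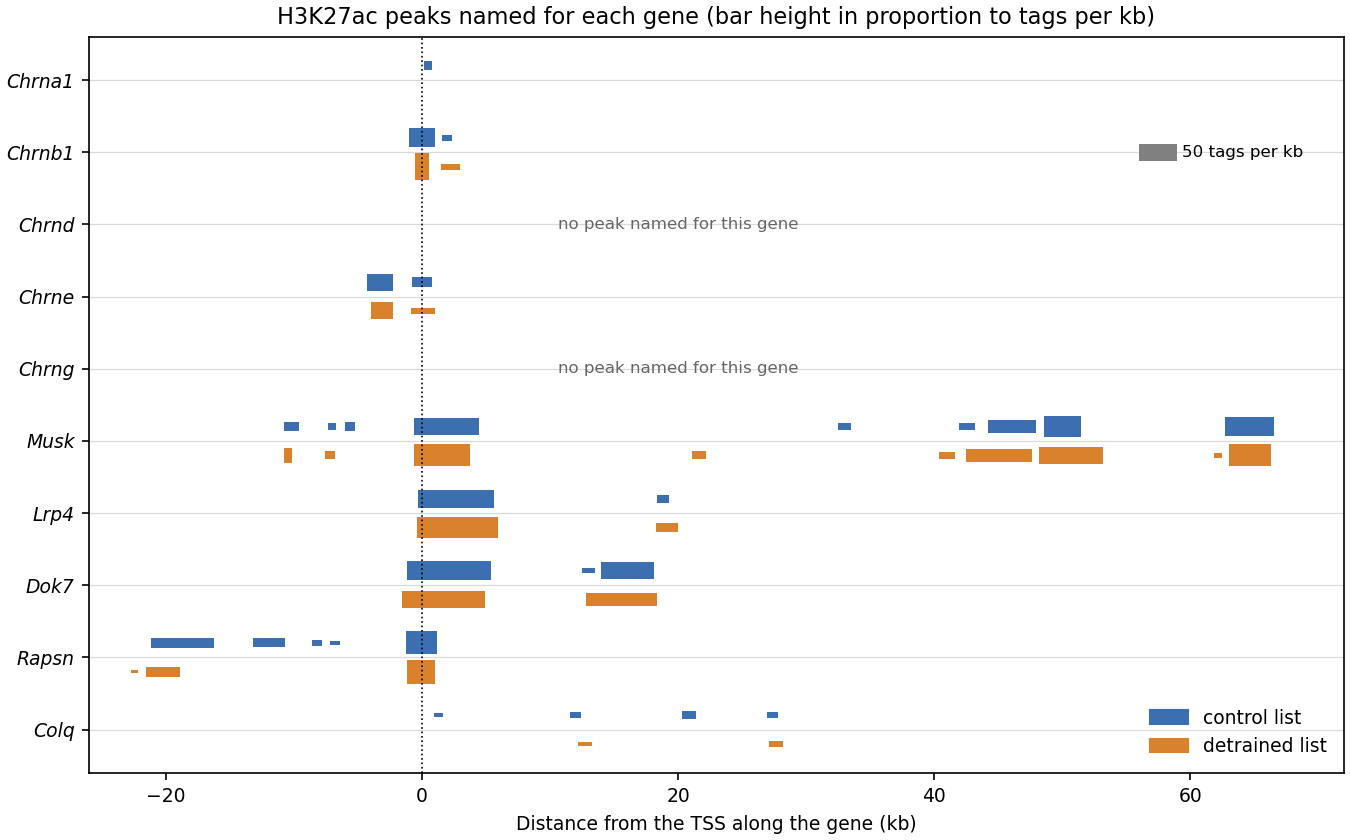
H3K27ac peaks named for each of the 10 genes, by distance from the TSS along the gene in kb (dotted line, TSS); upper bars are control peaks, lower bars detrained peaks, bar width is peak length and bar height is in proportion to pooled tags per kb per 10000000 tags. Chrnd and Chrng have no bar, Chrna1 has 1 control bar beside the TSS, and Musk carries 9 peaks in each list, from -10.2 kb to +64.6 kb in the control list.

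Chrnd and Chrng, which lie next to each other on chromosome 1 and encode the delta and gamma subunits, had no named peak in either list and no peak inside the gene. The peak nearest to both was named for the neighbor Eif4e2. Its edge lay 1131 bp from Chrng and 12896 bp from Chrnd in the control list, 1143 bp and 12908 bp in the detrained list, and it held 242.1 and 247.0 pooled tags per 10000000. The gamma subunit gene is the fetal form, but Chrnd is part of the adult receptor, so absence of a listed peak in bulk muscle was common to a fetal and an adult subunit gene. An unlisted gene may still hold H3K27ac below the cutoffs on enrichment and false discovery rate that the study's methods set for a peak. The lowest listed value was 5.66 pooled tags in control and 4.40 in detrained mice.

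Chrna1, the alpha subunit gene, had 1 weak peak in the control list and none in the detrained list. This peak, 637 bp in intron 1 and centered 453 bp after the TSS (chromosome 2, 73579567 to 73580204), held 16.5 pooled tags, more than 21.7% of the control peaks held. Its density was 22.1 tags per kb in C2 and 30.5 in C3. The density of a library is per 10000000 of its tags, with 0.5 tags added. Mean densities of a gene and density ranks among all peaks use pooled tags with nothing added. In the detrained list the nearest peak, 4529 bp from the gene, was named for Chrna1os. The value of the detrained libraries at the Chrna1 peak was not analysed here.

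Chrnb1, the beta subunit gene, was marked at its promoter in both groups, and the peak was narrower and denser in detrained mice. Its promoter peak (chromosome 11, 69794895 to 69796929 as called in control) had 55.2 and 56.9 tags per kb (C2 and C3) against 94.5 and 68.4 (Ex1 and Ex2). Both detrained libraries lay above both control libraries, although Ex1 and Ex2 were much further from each other than C2 from C3. The log2 ratio of detrained to control was 0.52 ± 0.23 (SD within groups, pooled, n = 2 libraries per group), and it was 0.29 without Ex1 and 0.75 without Ex2. The called length was 2034 bp for control and 1128 bp for detrained mice, and in tags per peak, without dividing by length, the direction turned to -0.33. A second Chrnb1 peak, centered at +2.0 kb in control and +2.2 kb in detrained mice, had 21.1 and 17.1 tags per kb (C2 and C3) against 18.1 and 17.6 (Ex1 and Ex2). Here the groups overlapped, with a ratio of -0.09 ± 0.15. It too was called at unlike lengths, 758 bp and 1482 bp, and in tags per peak the ratio turned to 0.87 with both detrained libraries above. The sums over both Chrnb1 peaks also overlapped, at 127.9 and 128.3 tags (C2 and C3) against 132.9 and 102.7 (Ex1 and Ex2).

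Chrne, the adult epsilon subunit gene, had a promoter peak that was lower in both detrained libraries and an upstream peak whose groups overlapped. The promoter peak (chromosome 11, 70618420 to 70619968 in control), which takes in the N-box core and the E-box printed above, had 26.9 and 32.0 tags per kb (C2 and C3) against 17.4 and 20.4 (Ex1 and Ex2). The groups did not overlap. The log2 ratio was -0.64 ± 0.17, the lowest of the 16 shared peaks, and it was also negative in tags per peak, at -0.35. Centered at -3309 bp in the control list, the intergenic peak upstream was the denser one, at 45.6 and 54.9 tags per kb (C2 and C3) against 49.9 and 51.1 (Ex1 and Ex2). Both detrained values fell between the control values, and the ratio was 0.01 ± 0.13, but in tags per peak both detrained libraries lay below, at -0.25. Summed over both peaks, Chrne held 134.8 and 161.6 tags (C2 and C3) against 117.7 and 125.4 (Ex1 and Ex2), a log2 ratio of -0.28 ± 0.14, which was -0.41 without C2 and -0.15 without C3.

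Musk had the most peaks of the group, 9 in each list, more than 92.7% of genes with a named peak in control and 94.6% in detrained mice. Summed over its peaks it held 889.8 and 954.4 tags per 10000000 (C2 and C3) against 1027 and 1098 (Ex1 and Ex2). The detrained sums were above the control sums, by a log2 ratio of 0.20 ± 0.07, while the length covered was 20511 bp and 22302 bp and the mean density 44.9 and 47.7 tags per kb for control and detrained mice. The TSS-spanning peak (chromosome 4, 58285341 to 58290409 in control), which runs into intron 1, had 49.5 and 49.4 tags per kb (C2 and C3) against 64.2 and 67.7 (Ex1 and Ex2). The control libraries were nearly equal and both detrained libraries lay above them. The log2 ratio was 0.42 ± 0.04, and in tags per peak it was 0.22.

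The other Musk peaks moved in both directions. Upstream, the peak at -10.2 kb had 27.002 and 31.2 tags per kb (C2 and C3) against 43.0 and 44.7 (Ex1 and Ex2), a ratio of 0.60 ± 0.11, the highest of the 16 shared peaks on this scale. With the input subtracted it was 0.40, and there, as without C2 or without Ex2, the Chrnb1 promoter had a higher ratio. Its called length was 1192 bp for control and 639 bp for detrained mice, so that in tags per peak the direction turned, to -0.30. At -7.1 kb the values were 22.6 and 23.7 (C2 and C3) against 22.5 and 27.5 (Ex1 and Ex2), and the groups overlapped with a ratio of 0.10 ± 0.15, while in tags per peak both detrained libraries were above, at 0.41. Within the gene, the intron 6 peak at +46.1 kb had 41.7 and 39.0 tags per kb (C2 and C3) against 37.1 and 38.1 (Ex1 and Ex2). Next to it, the intron 7 peak at +50023 bp had 64.0 and 62.1 against 46.7 and 54.9. In both peaks the detrained libraries were lower in density, with ratios of -0.10 ± 0.05 and -0.32 ± 0.12, but both were called longer in detrained mice, so that tags per peak turned to 0.36 and 0.46. Leaving out 1 library moved the intron 6 ratio to -0.055 (without C2) and -0.15 (without C3), and the intron 7 ratio to -0.20 (without Ex1) and -0.43 (without Ex2). The intron 6 groups also overlapped with the tags in listed peaks as the scale. The intron 9 peak at +64.6 kb, whose middle is printed above, had 48.6 and 65.7 tags per kb (C2 and C3) against 64.1 and 65.1 (Ex1 and Ex2). Here C2 alone was low, and the groups overlapped with a ratio of 0.19 ± 0.22. The ratio was -0.026 without C2, 0.41 without C3, and -0.040 in tags per peak.

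Beside these 6 shared peaks, Musk had 3 others in each list. In control mice a peak at -5.7 kb had 16.8 tags per kb in C2 and 33.2 in C3 and no detrained counterpart, the widest gap between libraries, as a ratio, of any peak of these genes. A second control peak without counterpart, in intron 5 at +33.0 kb, had 18.8 and 19.3. One more, in intron 6 at +42.5 kb, had 24.2 and 21.3 and overlapped a longer detrained peak in part. In detrained mice 3 intronic peaks had no control counterpart. They lay at +21.6 kb with 24.3 and 22.8 tags per kb in Ex1 and Ex2, at +41.0 kb with 21.6 and 23.9, and at +62.1 kb with 15.004 and 15.3. All 6 held 9.27 to 28.7 pooled tags, where the TSS-spanning peak held 250.2 in control and 292.0 in detrained mice.

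Lrp4, the agrin receptor gene, was denser in H3K27ac at the TSS in both detrained libraries. Its TSS-spanning peak (chromosome 2, 91457230 to 91463190 in control) had 54.0 and 53.6 tags per kb (C2 and C3) against 66.6 and 58.6 (Ex1 and Ex2). The groups did not overlap, the ratio was 0.22 ± 0.09 (0.12 without Ex1 and 0.31 without Ex2), and tags per peak gave 0.31. The smaller exonic peak at +18.9 kb overlapped between groups in density, with 25.0 and 22.1 tags per kb (C2 and C3) against 28.8 and 23.4 (Ex1 and Ex2), a ratio of 0.14 ± 0.17. Its called length was 930 bp for control and 1695 bp for detrained mice, and tags per peak differed by 1.01 on the log2 scale. Summed over both peaks, Lrp4 held 344.4 and 339.7 tags (C2 and C3) against 470.8 and 410.9 (Ex1 and Ex2), a log2 ratio of 0.36 ± 0.10.

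Dok7, the gene of the MuSK adaptor, had 2 shared peaks, both lower in density in the detrained libraries. Its TSS-spanning peak (chromosome 5, 35055583 to 35062153 in control) had 52.0 and 63.1 tags per kb (C2 and C3) against 48.6 and 51.9 (Ex1 and Ex2). Ex2 lay just under C2, so the groups were separate by little, and with the tags scaled to those in listed peaks, or centered on the median of all shared peaks, they overlapped. The ratio was -0.19 ± 0.15, and in tags per peak -0.20. Without C2 it was -0.33, and without C3, the higher control library, only -0.052. The intron 4 peak at +16.1 kb had 46.7 and 55.03 tags per kb (C2 and C3) against 38.9 and 36.1 (Ex1 and Ex2), a ratio of -0.44 ± 0.13 with no overlap. There the detrained peak was longer, 5536 bp against 4120 bp, and tags per peak were about equal, with a log2 ratio of -0.01 and overlapping groups. Summed over its named peaks, Dok7 held 547.9 and 656.4 tags (C2 and C3) against 532.0 and 537.7 (Ex1 and Ex2), a log2 ratio of -0.16 ± 0.13, which was -0.30 without C2 and -0.035 without C3. The control sum also holds a peak in intron 4 at +13.0 kb, 1000 bp long with 14.7 pooled tags and a density of 14.2 (C2) and 15.7 (C3), which overlapped the longer detrained intron 4 peak in part. Peaks inside Dok7 transcripts were also named for the neighbor Lrpap1, 2 in the control list with 53.6 and 26.5 pooled tags and 1 in the detrained list with 30.6.

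The TSS-spanning peaks of Musk, Lrp4 and Dok7 were among the longest of the data. They ran over 5068, 5960 and 6570 bp in control mice, longer than 92.7%, 94.9% and 95.9% of the control peaks, and over 4426, 6340 and 6528 bp in detrained mice, longer than 88.2%, 94.6% and 95.0% of the detrained peaks. In contrast, the TSS peak of Chrne ran over 1548 bp in control mice, longer than 49.3% of the peaks, that of Chrnb1 over 2034 bp, longer than 64.1%, and that of Rapsn over 2408 bp, longer than 72.1%. In detrained mice these ran over 1883, 1128 and 2203 bp, longer than 53.0%, 23.6% and 62.4% of the peaks. Of the 6 TSS peaks that of Rapsn was the densest in the control list, above 89.0% of the peaks, where Chrnb1, Chrne, Musk, Lrp4 and Dok7 stood above 82.8%, 53.8%, 78.5%, 81.5% and 83.7%. In the detrained list Chrnb1 was the densest, above 92.7%, and Rapsn stood above 89.7%.

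Rapsn, the gene of rapsyn, had a dense promoter peak whose groups overlapped, and fewer listed peaks upstream in detrained mice. The promoter peak (chromosome 2, 91034376 to 91036784 in control) had 64.8 and 72.2 tags per kb (C2 and C3) against 73.4 and 71.3 (Ex1 and Ex2). Only C2 stood apart, the groups overlapped, and the ratio was 0.08 ± 0.08, at 0.0032 without C2 and 0.16 without C3. With the tags in listed peaks as the scale (0.13), after centering (0.11) or with the input subtracted (0.13) both detrained libraries lay above, and in tags per peak the groups overlapped at -0.047. Besides the promoter peak, 4 peaks lay upstream in the control list and 2 in the detrained list. An intergenic control peak centered at -11.9 kb with 66.5 pooled tags, 26.8 tags per kb in each control library, overlapped no detrained peak. Among all control peaks with at least 30 pooled tags, 7.32% overlapped no detrained peak. The peak furthest upstream in control mice, at -18.7 kb, lay in the 3' UTR of a transcript of another gene and was called over 4860 bp with 134.8 pooled tags, against 2658 bp with 82.5 at -20.2 kb in detrained mice. The other control peaks, at -8.2 kb with a density of 16.1 (C2) and 16.4 (C3) and at -6.8 kb with 15.7 and 12.4, had no detrained counterpart. In detrained mice a peak of 4.87 pooled tags at -22.5 kb, with 8.41 and 11.9 tags per kb in Ex1 and Ex2, had none in control. In sum, Rapsn held 364.6 and 413.9 tags (C2 and C3) against 246.2 and 246.5 (Ex1 and Ex2), a log2 ratio of -0.66 ± 0.09. The length covered was 11313 bp in the control and 5361 bp in the detrained list, the mean density was 34.4 and 46.0 tags per kb, and counting peaks within 10 kb of the TSS alone the ratio was -0.24. A control peak of 5.66 pooled tags in an exon of Rapsn was named for the neighbor Psmc3.

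Colq, the gene of the collagen tail that holds acetylcholinesterase in the synaptic basal lamina, had weak peaks in introns and none over its TSS. It had 4 peaks in the control list, of 9.50 to 23.1 pooled tags, and 2 in the detrained list, of 15.1 and 17.6. The shared intron 3 peak at +27.4 kb had 18.0 and 15.2 tags per kb (C2 and C3) against 17.0 and 16.7 (Ex1 and Ex2). Both detrained values lay between the control values, and the ratio was 0.02 ± 0.12, but in tags per peak both detrained libraries were above, at 0.35. Of the other control peaks, those at +20.9 kb (21.04 and 22.3 tags per kb, C2 and C3) and +1.3 kb (15.9 and 13.1) had no detrained counterpart, and the one at +11973 bp (15.9 and 18.5) overlapped in part the detrained peak at +12.7 kb (13.3 and 13.8 in Ex1 and Ex2). Summed over all peaks, Colq held 61.0 and 60.4 tags (C2 and C3) against 32.5 and 32.9 (Ex1 and Ex2), a log2 ratio of -0.89 ± 0.011, over 3438 bp and 2188 bp, so that the lower sum went with fewer peaks and less covered length and the mean density was 17.7 and 14.9 tags per kb.

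**Figure D2:**
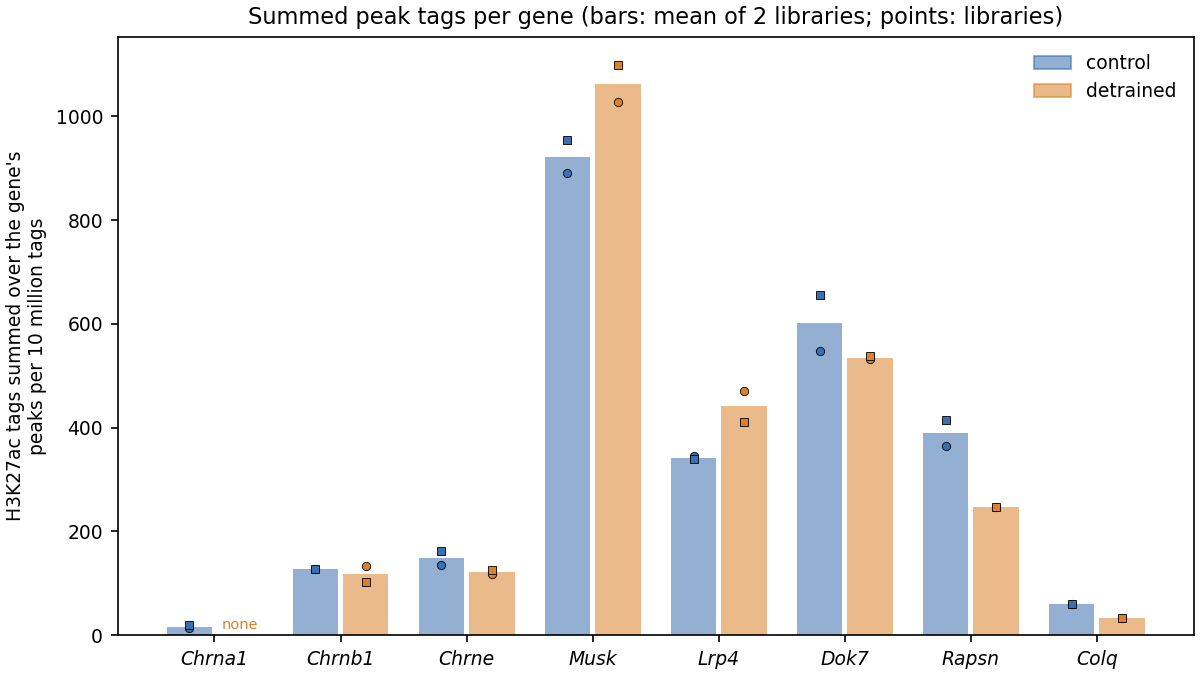
H3K27ac tags summed over all peaks named for a gene, in tags per 10000000 tags; bars are the mean of the 2 libraries of a group, and points are the libraries (circles C2 and Ex1, squares C3 and Ex2). Musk and Lrp4 are higher in both detrained libraries, Dok7, Chrne, Rapsn and Colq lower, Chrnb1 overlaps, and Chrna1 has a value in the control list alone; sums also move with how much sequence was called.

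Across the 16 peaks shared by both lists, over 7 genes, the detrained libraries lay above both control libraries in 4 (Chrnb1 promoter, Musk -10.2 kb, Musk TSS and Lrp4 TSS) and below both in 5 (Chrne promoter, both Dok7 peaks, and the Musk intron 6 and intron 7 peaks). In all 26432 shared peaks 21.3% lay above and 27.2% below, so the members' counts were near the background. The median log2 ratio of the 16 was 0.05, against -0.03 over all shared peaks, and 10 of the 16 ratios were larger than their pooled SD, as were 56.9% of all. No test was made between the groups, because the authors normalized the tables separately, and at 2 libraries a side a two-sided exact permutation test cannot go under p = 0.333. The deposited log2 values behind each library's density are shrunken, which brings the libraries of a group closer together in weak peaks.

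**Figure D3:**
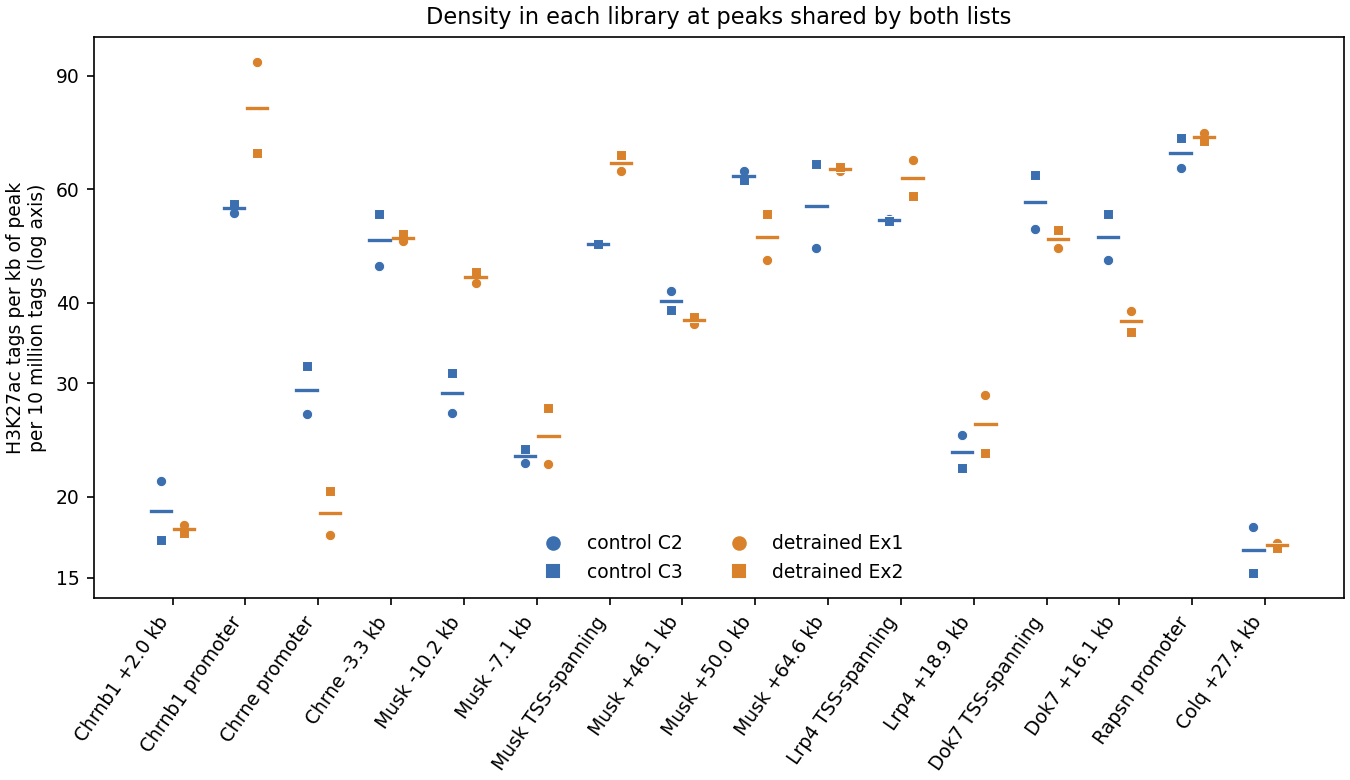
Density of H3K27ac (log axis, tags per kb per 10000000 tags) of each library at the 16 shared peaks, labelled by gene and position; points are libraries and the short lines are the geometric mean of a group. The Musk TSS peak shows 2 control points on top of each other under 2 detrained points, the Chrne promoter peak shows the reverse order, and 7 of the 16 peaks show overlapping groups.

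The direction often depended on whether tags were divided by peak length, here and in the whole data. Of the 16 ratios, 8 had the same sign in tags per kb and in tags per peak, where 51.8% of all did. Above on both scales were the Musk TSS and Lrp4 TSS peaks, 2 of 16 where 6.37% of all shared peaks were, and below on both were the Chrne promoter and Dok7 TSS peaks, 2 of 16 where 9.60% were. In tags per peak alone, 8 of the 16 were above and 5 below, with a median of 0.10, where 24.7% of all shared peaks were above and 28.8% below, with a median of -0.02.

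**Figure D4:**
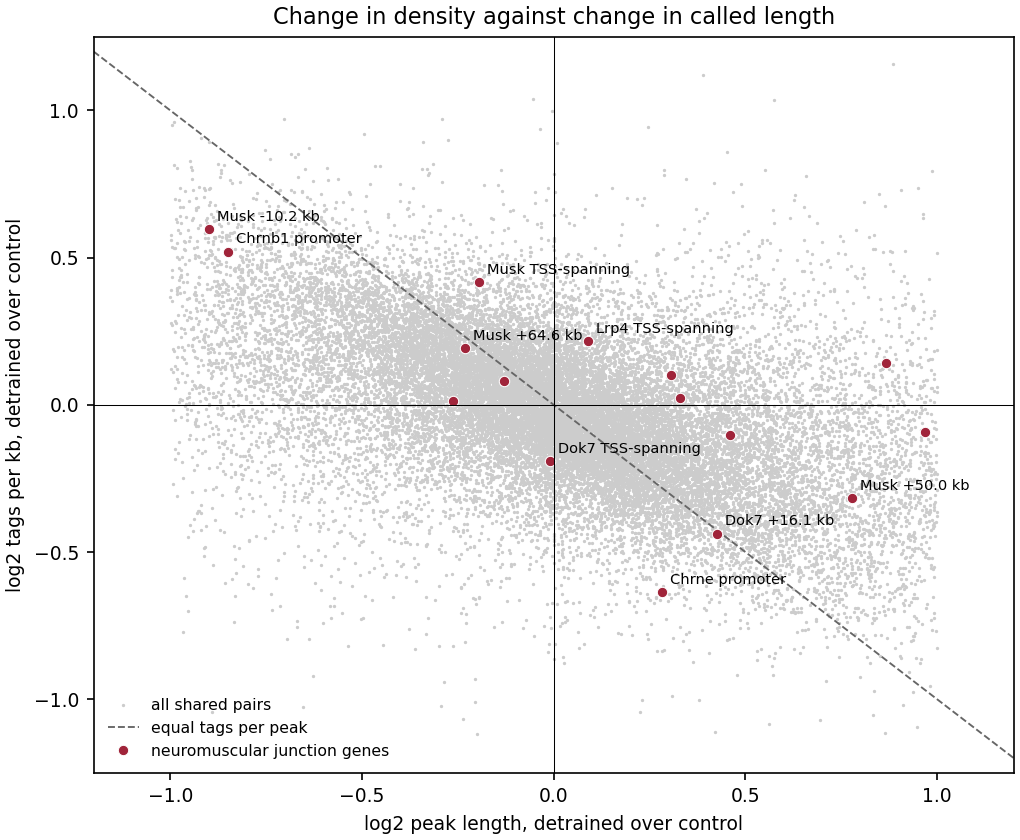
Log2 ratio of detrained to control in tags per kb (vertical) against the log2 ratio of the called peak length (horizontal), for the 16 shared peaks of the neuromuscular junction genes (large points) and all 26432 shared peaks (small points); on the dashed line tags per peak are equal. The Musk TSS and Lrp4 TSS peaks lie above both the horizontal axis and the dashed line, the Chrne promoter and Dok7 TSS peaks below both, and the Chrnb1 promoter and Musk -10.2 kb peaks lie above the axis but under the line.

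Peaks in 1 list only made up similar shares of the peaks of these genes and of all peaks. In the control list 8 of the 28 peaks (28.6%) overlapped no detrained peak, where 27.9% of all control peaks did, and in the detrained list 4 of 22 (18.2%) overlapped no control peak, where 18.0% did. These peaks held 9.50 to 66.5 pooled tags in control and 4.87 to 27.1 in detrained mice, where the median of all peaks was 45.5 and 57.9. Over input, the H3K27ac libraries stood at log2 values of 1.44 to 3.55 above the input in the members' control peaks and 1.37 to 3.54 in their detrained peaks. The median over all peaks was 2.27 and 2.22. By the study's methods a listed peak had to pass a cutoff on enrichment, so low values were left out beforehand.

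Other genes of the synapse were taken from a list of 30 partners of these genes, such as agrin, utrophin and the syntrophins. A peak was named for 24 of the 30 in control and 26 in detrained mice, and Nrg1, Erbb3, Gabpa and Macf1 had none in either. For this list and the next, a peak inside a gene but named for a neighbor was not counted. Over their 54 shared peaks, 14 were above in both detrained libraries and 10 below, with a median log2 ratio of -0.01, beside the 21.3% and 27.2% of all shared peaks. In tags per peak the balance turned, to 12 above and 19 below with a median of -0.09, beside 24.7% and 28.8% of all. Taking the densest shared peak of each gene, the lowest ratio was at Sntb2, a syntrophin gene, with 90.03 and 85.5 tags per kb (C2 and C3) against 62.8 and 56.9 (Ex1 and Ex2) (-0.55 ± 0.08, and 0.17 in tags per peak). The highest was at Cttn, the gene of the actin regulator cortactin, with 32.4 and 30.9 against 43.6 and 39.1 (0.38 ± 0.09, and -0.20 in tags per peak). At both genes the groups were separate and the direction turned with peak length.

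A list of 14 genes tied to loss of the nerve, here called denervation genes, was also read. A peak was named for 8 in control and 9 in detrained mice, and those with none included Myh3, Myh8, Sarm1 and Gdf5. Over 30 shared peaks, 7 were above in both detrained libraries and 7 below, with a median of -0.02, while in tags per peak 13 were above and 7 below with a median of 0.11. The shares over all shared peaks were those just given, and in tags per peak a larger share of these peaks was above than in the whole data, a difference that was not tested. The peaks came from 7 genes, with 12 from 1 gene and 6 from another. At the densest shared peak of each gene, 0 were above and 3 below in density, with a median of -0.13. By densest shared peak, the lowest was at Myog, the gene of the myogenic factor myogenin, with 80.5 and 92.2 tags per kb (C2 and C3) against 75.5 and 73.3 (Ex1 and Ex2) (-0.21 ± 0.10, and 0.01 in tags per peak). At the other end was Chrna9, a subunit gene of neuronal-type acetylcholine receptors, with 25.2 and 22.3 against 21.1 and 33.1. There the groups overlapped (0.16 ± 0.34, and 0.73 in tags per peak). Among the cell type markers the highest ratio at the densest shared peak was 0.35 ± 0.29 at Kdr, an endothelial receptor gene, and the lowest -0.25 ± 0.12 at Mbp, a myelin gene. In tags per peak both turned, to -0.094 at Kdr and 0.13 at Mbp. In tags per kb, at least 1.5-fold apart with separate groups were 2 of the 16 shared peaks of the neuromuscular junction genes (the Chrne promoter and Musk -10.2 kb), 3 of the 54 of the partner genes, 1 of the 30 of the denervation genes, and 3.16% of all shared peaks. In tags per peak the Chrne promoter was 0.78-fold and Musk -10.2 kb turned to 0.81-fold, so neither was that far apart. On that scale Chrnb1 +2.0 kb (1.83-fold) and Lrp4 +18.9 kb (2.01-fold) were, with separate groups. The share of all shared peaks that far apart in tags per peak was not counted. In density both also came under 1.5-fold in some settings, the Chrne promoter without C3 (-0.51 on the log2 scale) and without Ex1 (-0.52), and Musk -10.2 kb without C2 (0.49), without Ex2 (0.57) and with the input subtracted (0.40).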

How the data were processed

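H3K27ac ChIP-seq of quadriceps was compared between control and detrained mice, with 2 H3K27ac libraries and 1 input per group. Per the labels and the study's methods, reads were mapped by the authors to mm10 using Bowtie. HOMER called 1 peak list per group on pooled libraries against the input. To be listed, the study's methods required a 2-fold enrichment and a limit on the false discovery rate, tested with both replicates. The deposited signal of a peak counts the tags of both libraries, scaled to 10000000. The log2 values deposited for each library are regularized and scaled to total tags inside 1 table. For the comparison of each peak with the input, the authors also deposited a fold, a p-value and an adjusted p, which served here only for a stricter peak list. Gene names, annotations and distances to the TSS are those the authors deposited.

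Tags of each library were estimated by splitting a peak's pooled tags by library total times 2 raised to its log2 value. The density of a library was (tags + 0.5) per kb of peak per 10000000 tags, while mean densities of a gene and density ranks used pooled tags. A shared peak was a one-to-one match in which both peaks were covered over 50% or more of their length. Libraries of the control group are numbered differently in the tables and in the labels, so they were used as a group. The members, gene lists and alternatives were chosen with earlier results of these data known. All 10 genes were named with every peak, and of the other lists the genes with the highest and lowest ratio at the densest shared peak, any such peak at least 1.5-fold apart with separate groups, and neighbors in whose name a peak inside a member is listed. Genes without a peak and marker genes at 0 were named as such outside this rule, except some not reported here. Alternatives covered peak length, normalization, overlap, pseudocount, input, peak list and each library left out. No library's counting interval is given, since tags per library are estimates. The steps were tested on simulated data. Python 3.11.15, numpy 2.4.6, pandas 2.3.3, pysam 0.24.0 and matplotlib 3.10.9 were used.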

Additional observations from a re-analysis of the deposited data

How the results depend on the processing

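With 2 libraries per group, 1 input each and separately normalized tables, the spread between libraries limits every comparison, and most ratios near 0 have no stable sign. Signal per library is an estimate, and called peak length enters each density. The 4 shared peaks of these genes that were higher and 5 that were lower became 8 and 5 in tags per peak (24.7% and 28.8% of all shared peaks), 6 and 3 with the tags in listed peaks as the scale (27.8% and 22.03%), 5 and 4 after centering on all shared peaks (24.3% and 24.1%), and 2 and 2 (4 in all) where both peaks were covered over 80% or more (16.5% and 23.7%), which left 7 pairs. Leaving out each library gave 10 to 14 separate peaks, 5 to 7 higher (28.8% to 38.7% of all) and 5 to 7 lower (35.9% to 45.5%), and a median ratio from 0.016 to 0.096.

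Tags per peak turned the Chrnb1 promoter (-0.33), Chrne -3.3 kb (-0.25), Musk +64.6 kb (-0.040), Rapsn promoter (-0.047), Chrnb1 +2.0 kb (0.87), Musk intron 6 (0.36), intron 7 (0.46) and -10.2 kb (-0.30), and moved Colq +27.4 kb to 0.35. By construction these are differences in called length. Subtracting the input turned Chrne -3.3 kb (-0.016) and Colq +27.4 kb (-0.019), and a pseudocount of 5 tags turned Colq (-0.013), and the cause was not tested. Leaving out a library gave -0.12 to 0.15 at Chrne -3.3 kb, -0.093 to 0.14 at Colq, -0.026 to 0.41 at Musk +64.6 kb, -0.24 to 0.059 at Chrnb1 +2.0 kb, -0.0088 to 0.29 at Lrp4 +18.9 kb, -0.042 to 0.25 at Musk -7.1 kb and -0.32 to 0.053 for the Chrnb1 sum.

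The 28 control and 22 detrained peaks became 12 and 12 at least 4-fold over input with adjusted p under 0.001, 14 and 9 within 10 kb of the TSS, and 14 and 13 with at least 30 pooled tags. Within 10 kb the Rapsn sum moved to -0.24. Tags per peak and the left-out libraries at peaks other than a gene's densest, and the limit of 30 tags, were chosen after seeing the data. No paired analysis was possible because the numbers of the control libraries (2, 3) and of the detrained libraries (1, 2) do not match and the groups were not tested against each other. A fit with a replicate block was therefore not run.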
